A study of Ovis aries with 19 samples.

Results

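Interferon-stimulated genes are the transcripts that cells switch on when interferon, the cytokine of antiviral defence, binds its receptor. The 33 genes described here were measured in liver and skeletal muscle of female sheep (Ovis aries) that had been exposed to excess testosterone before birth and of control females. They came from a list of 37 gene names. By name 33 were found in the deposited table of 28524 gene identifiers, and 32 of those had a mean normalized read count of at least 10 in liver or muscle. USP18 was added through its gene number. RSAD2 was below the mean of 10 in both tissues, and OAS2, BST2 and SAMD9 were not matched and are not analysed here. All 33 genes had a mean of at least 10 in liver and 29 had one in muscle. In muscle ISG15, ZBP1, IRF7 and RTP4 lay below it.

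Type I interferon binds IFNAR1 and IFNAR2, whose kinases JAK1 and TYK2 phosphorylate STAT proteins. STAT2 and IRF9 are parts of the transcription factor ISGF3, which turns on genes that carry its response element. In liver, hepatocytes and the resident macrophages, called Kupffer cells, both respond to interferon. The products sense viral nucleic acid, block viral translation or replication, tag proteins with the ubiquitin-like protein ISG15, and in part raise or damp the signal itself.

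The study had 10 female sheep, 5 control and 5 treated with testosterone before birth, and 19 libraries of total RNA. Liver libraries came from control sheep 98, 131, 179 and 201 and from treated sheep 48, 63, 185, 233 and 255. Muscle libraries came from the same 9 sheep and from control sheep 132, whose liver is not analysed here. The sources used here do not give the dose, the timing of the treatment or the age at sampling, and each library was 1 animal. Libraries held 10236610 to 16046301 reads in liver and 8455563 to 14331578 in muscle. The tissue labels matched defining markers, since 8 hepatocyte genes summed to 891342 or more in every liver and to no more than 171 in any muscle. Values are read counts that the authors normalized, and they appear to have been scaled within each tissue, so levels are compared only within a tissue.

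In liver no interferon-stimulated gene passed the test between treated and control sheep (limma on log2(value + 1), Benjamini-Hochberg adjusted over 13640 genes, adjusted p = 0.999 for each of the 33). The share of all genes called by that rule was 0.00733%. Among the 33 genes, 27 had a lower mean in treated sheep and 6 a higher one on the log2 scale, with a median log2 fold change of -0.38. Over all genes tested the median was 0.0032 and 49.6% lay below 0. Without the liver library of control sheep 98 the median of the 33 genes was -0.024, with 18 below 0 and 15 above. The downward shift of the median thus rested on this 1 library. Single genes stayed lower in treated sheep without it, such as ISG15 at -0.98, USP18 at -0.70 and LGALS3BP at -0.68. Others were higher, such as IFI6 at 1.84 and IFIT2 at 0.72. In a tissue sample, a change in the number of cells of a type cannot be told apart from a change in RNA per cell.

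The liver library of control sheep 98 stood above the mean of the other 3 control livers for 33 of 33 genes, at a median ratio of 3.07. It was at least 2-fold above for 24 of the 33, against 4.68% of all genes tested in liver. For all genes 1 was added to both values before the ratio was taken, which shrinks the ratios of low genes. The library of sheep 98 was the highest of the 9 liver libraries for 27 of the 33 genes, against 11.0% of all genes. Among the 33 genes the ratio ran from 1.22 for IFIT5 to 24.4 for IFI6. The heat map of deviations by library shows the column of sheep 98 in liver and no such column for the muscle of the same animal.

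**Figure D1:**
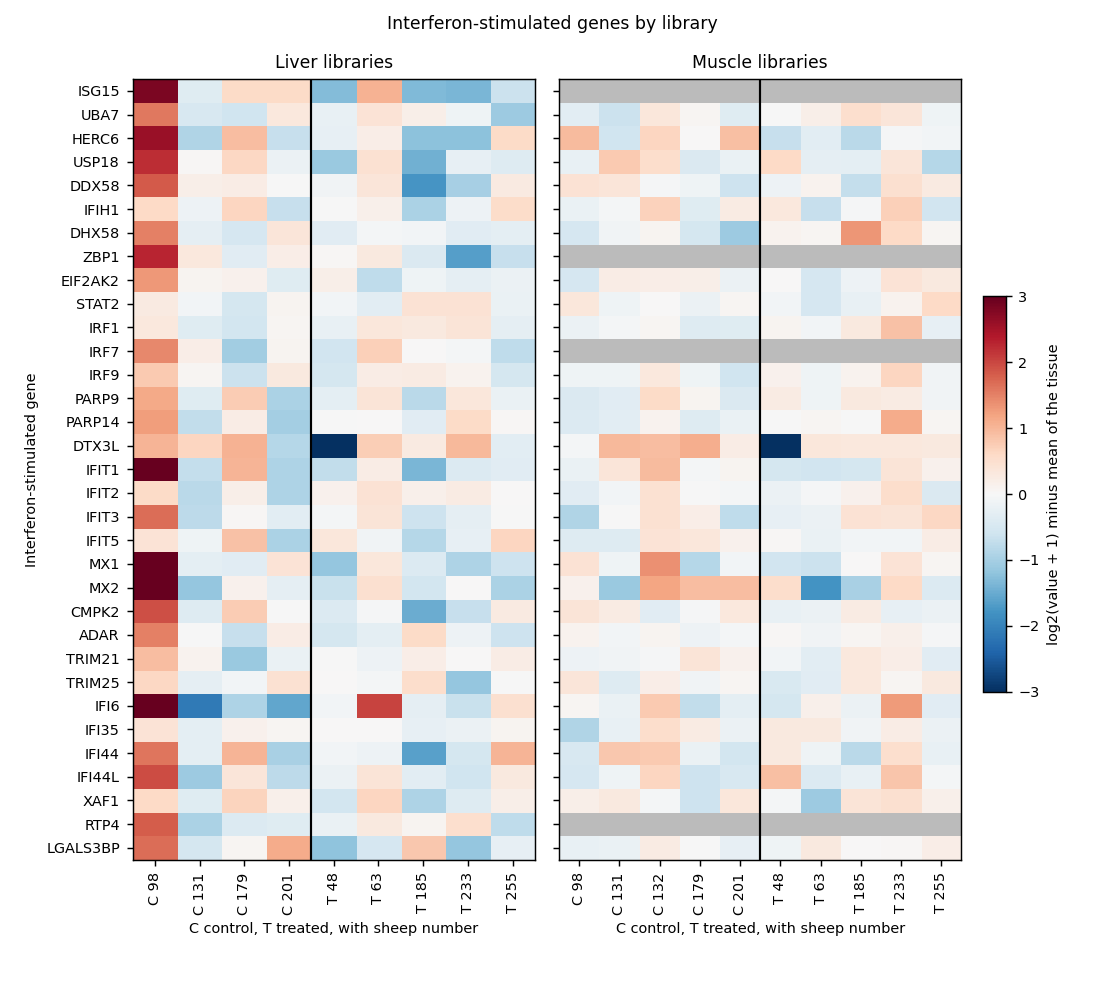
Each cell gives log2(normalized read count + 1) of 1 interferon-stimulated gene in 1 library minus that gene's mean over the tissue, with control (C) and treated (T) sheep split by a line, grey for genes not tested in muscle, and values past 3 in either direction drawn at the end of the scale. In liver the library of control sheep 98 is above the tissue mean for 33 of 33 genes, while in muscle the libraries of control sheep 132 and treated sheep 233 are above it for 25 and 26 of 29.

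The ISG15 conjugation system was the group with the highest median ratio in sheep 98, at 4.89 over 4 genes. ISG15 itself, the ubiquitin-like modifier, had normalized read counts of 3033 in control liver 98, 329 in 131, 628 in 179 and 635 in 201. In treated livers its counts were 172 in sheep 48, 873 in 63, 169 in 185, 163 in 233 and 270 in 255. Sheep 98 was above all others and treated sheep 63 above the other 3 controls, so the groups overlapped. The log2 fold change was -1.63 ± 0.63 (SE, 4 control and 5 treated sheep, limma, unadjusted p = 0.0237), and -0.98 with unadjusted p = 0.0864 without sheep 98. USP18, the protease that removes ISG15 and damps receptor signalling, was at 568, 125, 187 and 107 in control livers 98, 131, 179 and 201. Its treated livers read 55.4, 167, 44.3, 103 and 93.2 in sheep 48, 63, 185, 233 and 255. Each control was above 4 of the 5 treated livers, while treated sheep 63 exceeded controls 131 and 201, so the groups overlapped. USP18 had a log2 fold change of -1.21 ± 0.50 (SE, limma, unadjusted p = 0.0329), and -0.70 with unadjusted p = 0.128 without sheep 98. UBA7, the ISG15-activating enzyme, was 3.46 times and HERC6, an ISG15 ligase in mice, 5.92 times as high in sheep 98 as the mean of the other controls.

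All 6 of the other antiviral effectors, which act on viral RNA, particles or replication, were highest of the 9 livers in sheep 98. MX1, a dynamin-like GTPase that traps viral nucleocapsids, was at 2134 in control liver 98 and at 218, 209 and 355 in 131, 179 and 201. Treated livers 48, 63, 185, 233 and 255 were at 118, 336, 200, 140 and 172. Sheep 98 was thus 8.19 times as high as the mean of the other controls, and those lay within or just above the range of the treated livers. Its log2 fold change was -1.25 ± 0.60 (SE, limma, unadjusted p = 0.0585), and -0.48 without sheep 98. MX2, its paralogue, was at 445 in sheep 98 and at 24.2, 60.5 and 45.6 in the other controls, against 28.2 to 77.1 in treated livers. Its log2 fold change moved from -0.76 to 0.09 when sheep 98 was left out. CMPK2, a mitochondrial nucleotide kinase, read 1178, 234, 522 and 305 in control livers and 231, 299, 108, 189 and 372 in treated ones, in the order of sheep given above. Only treated liver 255 exceeded control 201, and treated 63 and 255 exceeded control 131. The log2 fold change of CMPK2 was -1.05 ± 0.47 (SE, limma, unadjusted p = 0.0450), and -0.59 with unadjusted p = 0.173 without sheep 98.

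ADAR, the enzyme that edits double-stranded RNA, was at 1465 in control liver 98 and at 509, 319 and 605 in the other controls, with treated livers from 333 to 771. TRIM25, the ubiquitin ligase that activates RIG-I, differed less, at 1416 in sheep 98 against 762 to 1265 in the other controls. RSAD2, which encodes the antiviral protein viperin and was too low to be kept, showed the same library: 54.3 in control liver 98 (84 reads) against 0 to 3.34 in the other 8 livers.

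The 4 genes of the IFIT family differed among themselves. IFIT1 was at 2296 in control liver 98, 141 in 131, 478 in 179 and 122 in 201, and at 140, 273, 89.6, 177 and 184 in treated livers 48, 63, 185, 233 and 255. Sheep 98 was 9.28 times as high as the other controls, and controls 131 and 201 lay inside the treated range. IFIT3 was 4.02 times and IFIT2 2.01 times as high in sheep 98. IFIT5 was not highest there, at 1607 in sheep 98 against 2211 in control 179 and 1896 in treated 255. IFIT2 was the member of this family with a positive log2 fold change over all livers, at 0.45 ± 0.32 (SE, limma, unadjusted p = 0.193), and it reached 0.72 with unadjusted p = 0.0386 without sheep 98.

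**Figure D2:**
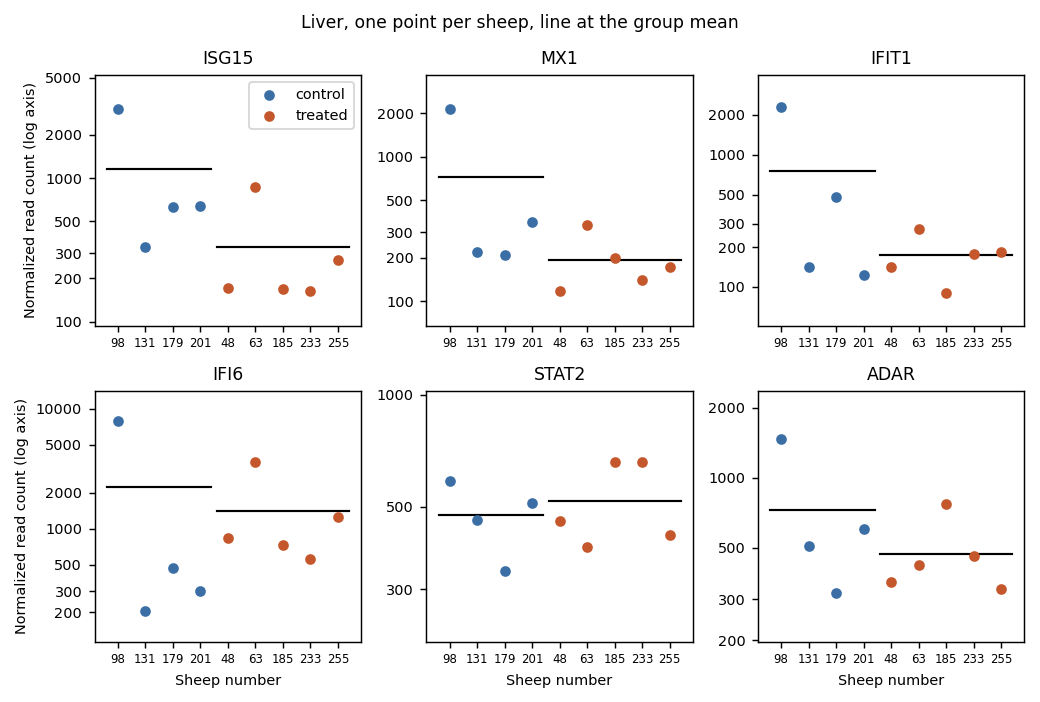
Normalized read counts (log axis) of 6 interferon-stimulated genes in each liver, by sheep number, with a line at each group mean. Control sheep 98 is the highest point for ISG15, MX1, IFIT1, IFI6 and ADAR, at 3033, 2134, 2296, 7876 and 1465, while for STAT2 treated sheep 185 and 233 are higher than it.

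Sensors of foreign nucleic acid had a median ratio of 3.07 in sheep 98 over 5 genes. DDX58, which encodes the RNA sensor RIG-I, was at 588 there and at 185, 192 and 164 in controls 131, 179 and 201. Treated livers 48, 63, 185, 233 and 255 were at 151, 212, 47.4, 81.4 and 197. The 3 other controls were close together, and treated livers 63 and 255 were above them while 185 and 233 were far below. ZBP1, the sensor of left-handed nucleic acid, was at 1062 in sheep 98 against 173 to 271 in the other controls and 68.5 to 268 in treated livers. DHX58, the RIG-I-like regulator LGP2, was at 392 in sheep 98 against 96.2 to 175. IFIH1, the sensor MDA5, did not single out this library, at 749 in sheep 98, 770 in control 179 and 726 in treated 255. EIF2AK2, the kinase PKR that stops translation, was at 503 against 159 to 224 in the other controls. All 5 sensors had negative log2 fold changes over all livers, from -1.10 for ZBP1 to -0.18 for IFIH1, and none passed the adjusted test. Without sheep 98 they ran from -0.58 for DDX58 to -0.0089 for IFIH1.

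Genes of signalling and transcription stood out least in sheep 98, with a median ratio of 1.77 over 7 genes. STAT2, a subunit of ISGF3, was at 587, 461, 336 and 512 in control livers 98, 131, 179 and 201. In treated livers it was at 456, 389, 659, 660 and 420 in sheep 48, 63, 185, 233 and 255. Here 2 treated livers exceeded sheep 98, and the log2 fold change was 0.12 ± 0.26 (SE, limma, unadjusted p = 0.654). IRF9, the DNA-binding subunit of ISGF3, was at 893 in sheep 98 against 331 to 642 in the other controls, and IRF1 was at 208 against 114 to 173. IRF7, the factor that amplifies interferon production, was at 92.5 against 15.8 to 38.7. PARP14, an ADP-ribosyltransferase, was at 774 against 159 to 379.

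The other interferon-induced genes held the most extreme value. IFI6, a small mitochondrial and endoplasmic reticulum protein with antiviral activity, was at 7876 in control liver 98 and at 204, 465 and 299 in controls 131, 179 and 201. Treated livers 48, 63, 185, 233 and 255 were at 840, 3631, 734, 559 and 1252. All 5 treated livers were thus above 3 of the 4 controls and below sheep 98. The log2 fold change of IFI6 was 0.67 ± 0.91 (SE, limma, unadjusted p = 0.479), and 1.84 ± 0.54 with an unadjusted p of 0.00542 without sheep 98. Its direction also turned in the count models on recovered reads, to -0.70 in edgeR and -0.65 in DESeq2, with sheep 98 included. RTP4, a chaperone of receptors, was 5.19 times and IFI44L 5.02 times as high in sheep 98 as in the other controls. LGALS3BP, a secreted galectin-binding protein, was at 1944 in sheep 98, but control 201 with 1315 and treated 185 with 1057 were also high. IFI44, a cytoplasmic protein induced by interferon, was at 1770 in sheep 98, 1183 in control 179 and 1181 in treated 255, and at 188 to 550 in the remaining livers. Among the controls the 4 genes not highest in sheep 98 were IFIH1, DTX3L, IFIT5 and XAF1, each highest in sheep 179.

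In liver 3 of the 33 genes were lower in treated sheep at an unadjusted p under 0.05, ISG15, USP18 and CMPK2, against 2.17% of all genes. None of the 33 was higher at that threshold, against 1.82% of all genes. Without control sheep 98 the counts were 0 lower, against 1.43%, and 2 higher, IFI6 and IFIT2, against 1.49%, and 9 of the 33 fold changes had another sign. None passed the adjusted test without sheep 98 either (limma, adjusted p of at least 0.99970). No gene of the 33 had separate ranges in control and treated livers, against 1.54% of all genes tested. The count of 3 also rested on other libraries, since it was 6 without control 131 or treated 63 and 1 without treated 48 or 233, where 1.71% to 2.27% of all genes were lower. The counts at an unadjusted p under 0.05 were 10 lower with edgeR, against 2.59% of all genes, and 8 with DESeq2, against 2.60%, and neither called a member after adjustment.

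**Figure D3:**
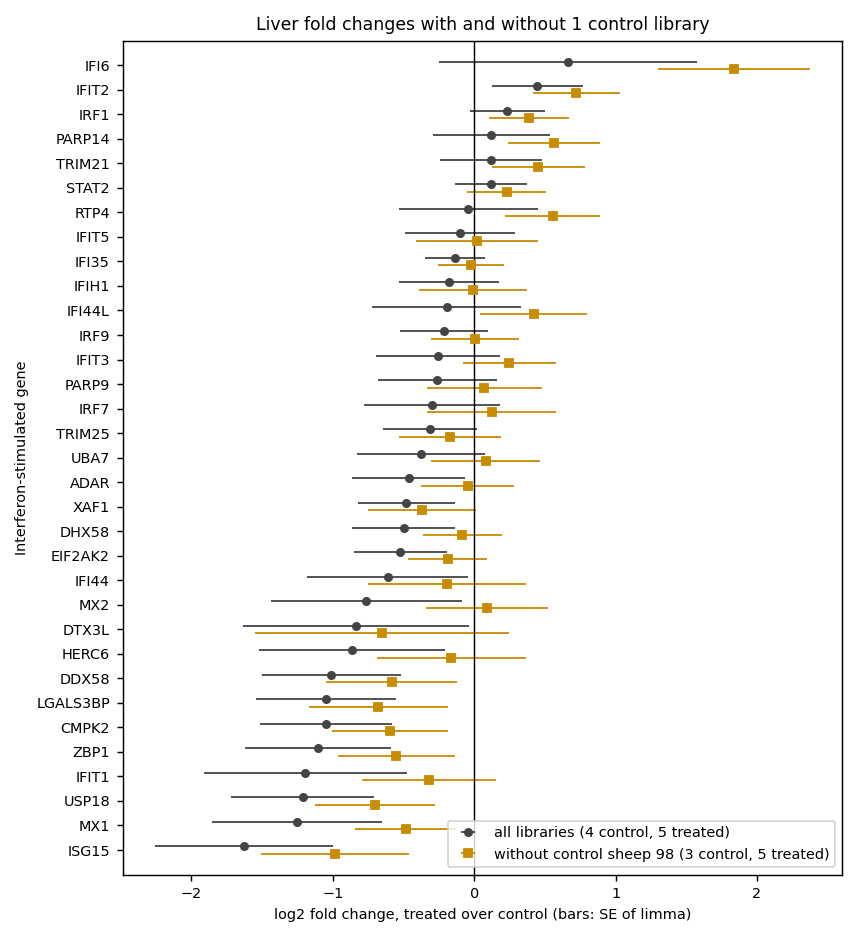
Log2 fold changes (treated over control, limma, bars for the SE) of the 33 genes in liver with all libraries (circles) and without control sheep 98 (squares). The median moves from -0.38 to -0.024, and IFI6 moves from 0.67 to 1.84.

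Treated sheep 63 had the second highest liver level of these genes. It was the highest of the 5 treated livers for 16 of the 33 genes, against 13.8% of all genes tested, with ratios to the other treated livers of up to 4.51 for ISG15. The mean over the 33 genes of the deviation from the tissue mean, on the log2 scale and here called the score, was 1.55 in sheep 98 and 0.24 in sheep 63. The remaining livers scored from -0.42 in treated 48 to 0.08 in control 179. The group mean was 0.26 ± 0.88 (SD, n = 4) in control livers and -0.20 ± 0.28 (SD, n = 5) in treated livers, so the difference was smaller than the SD of the controls.

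The 33 genes varied together across livers, largely through sheep 98. The correlation of each gene with the mean of the others over the 9 livers had a median of 0.74, and 27 of the 33 were above 0.5. Without sheep 98 the median over 8 livers was 0.42 and 16 were above 0.5. XAF1, IFI6, ISG15, IFIT3 and USP18 then had the highest values, from 0.84 to 0.95, and STAT2, TRIM21, EIF2AK2 and ADAR had the lowest, from -0.75 to -0.51. These correlations are descriptions over libraries that share depth and tissue makeup, and no such value was computed for other sets of genes.

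Other cell types moved with sheep 98 only in part. The summed level of 9 measured macrophage markers was 4298 in control liver 98 and 2040 to 3758 in the other controls, and treated livers spanned 2364 to 5274. None of these 9 markers was at 0 in all livers. The Kupffer cell receptor MARCO was 2.59 times and CSF1R, the receptor of macrophage growth factor, 2.16 times as high in sheep 98 as in the other controls, whereas AIF1 and TYROBP were at 0.51 and 0.74 times. The sum over 12 T and NK cell genes was 495 in sheep 98 against 315 to 439, with GZMA at 1.94. Dendritic cell genes summed to 267 against 300 to 641, and those of B and plasma cells to 789 against 422 to 1854. The summed hepatocyte genes were 903036 in sheep 98 against at least 1034920 in the other controls. The part of these cell types in the result of sheep 98 was not tested.

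In muscle no interferon-stimulated gene passed the test either (limma, adjusted over 12966 genes, smallest adjusted p = 0.273, against 0.00771% of all genes called). Of the 29 genes tested 14 lay below 0 and 15 above, with a median log2 fold change of 0.00034, while the median over all genes was -0.013. At an unadjusted p under 0.05, HERC6 was lower and DHX58 higher in treated sheep, 1 gene each, against 7.00% and 7.37% of all genes. No gene had separate ranges in both groups, against 3.29% of all genes.

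DHX58 read 12.9, 17.3, 19.8, 12.8 and 8.20 in control muscles 98, 131, 132, 179 and 201. Treated muscles 48, 63, 185, 233 and 255 read 20.3, 19.4, 48.0, 29 and 19.4. Sheep 185 was the highest, and 3 of the 5 treated muscles were above every control. The log2 fold change of DHX58 was 0.86 ± 0.33 (SE, limma, unadjusted p = 0.0218). HERC6 read 36.7, 11.9, 29.7, 18.6 and 35.5 in the same controls and 11.2, 14.6, 10.2, 17.9 and 17.5 in treated muscles. Controls 98, 132, 179 and 201 were above all treated muscles, and control 131 was inside their range. The log2 fold change of HERC6 was -0.77 ± 0.34 (SE, limma, unadjusted p = 0.0407). The count of lower genes was 0 without control 98 or 201 or treated 48, 63 or 185, and 2 without control 131 or treated 233. The count of higher genes was 3 without control 132, 2 without treated 255 and 0 without control 201 or treated 185. With 1 library left out, 5.00% to 8.96% of all genes were lower and 6.03% to 8.19% higher in muscle.

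A pair of muscle libraries stood above the others. Control sheep 132 was the highest of the 5 control muscles for 17 of the 29 genes, against 21.9% of all genes tested in muscle, with a score of 0.42. MX1 was at 69.3 there, against 35.7, 23.8, 13.9 and 24.6 in controls 98, 131, 179 and 201, and 16.2 to 34.9 in treated muscles. IFIT1 was at 78.1 against 34.7 to 52.0 in the other controls, and IFI35 at 125 against 45.7 to 102. Treated sheep 233 was the highest of the 5 treated muscles for 15 of the 29 genes, against 21.5% of all genes, with a score of 0.41. IFI6 was at 58.8 there against 16.2 to 26.7 in the other treated muscles, PARP14 at 116 against 52.3 to 55.8, and IRF1 at 115 against 52.4 to 76.3. The remaining 8 muscles scored from -0.24 in treated 63 to -0.013 in treated 185. Since 1 such library fell in each group, the group scores were 0.0089 ± 0.23 in controls and -0.0089 ± 0.25 in treated sheep (SD, n = 5 each).

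Macrophage markers moved with both muscle libraries. Their summed level was 621 in control 132 against 302 to 354 in the other controls, and 790 in treated 233 against 268 to 406 in the other treated muscles. The complement gene C1QA was 3.31 times and AIF1 2.84 times as high in sheep 132 as the mean of the other controls, and the macrophage receptor MARCO was at 1.10. Neutrophil genes summed to 95.7 in sheep 132 against 30.2 to 45.7 in the other controls, and to 79.2 in sheep 233 against 27.5 to 66.2, with MPO at 0 in all muscles. The part of these cells in the muscle values was not tested.

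The 4 genes under the filter in muscle had few reads there. ISG15 had 2 to 16 reads per muscle library, at normalized read counts of 1.45 to 17.6, and the highest was control 132. In liver it had 146 to 4690 reads, although the scaling of both tissues was separate. ZBP1 had 1 to 12 reads and RTP4 4 to 15. IRF7 had 0 reads in control muscle 131 and up to 32 in treated 185.

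The treatment effect of none of the 29 genes differed between muscle and liver after adjustment, against 0.00855% of all genes called. The test was limma over 19 libraries and 11697 genes, with no term for the sheep. At an unadjusted p under 0.05 the effect of 2 of the 29 genes was more positive in muscle, against 2.56% of all genes. DHX58 differed by 1.35 ± 0.49 (unadjusted p = 0.0120, adjusted p = 0.897) and LGALS3BP by 1.22 ± 0.52 (unadjusted p = 0.0288, adjusted p = 0.963) on the log2 scale (SE, limma). None was more negative, against 2.34% of all genes. Without the liver of sheep 98 the counts were 1 more positive and 1 more negative, against 1.87% and 2.11% of all genes. The count of more positive genes was 4 without control liver 179 or treated liver 63. It was 1 without control liver 201 or treated liver 48 or 233. The share of all genes more positive in muscle was 7.12% without control liver 179 and 2.80% without treated liver 63. That share was 2.04%, 2.35% and 2.21% without control liver 201, treated liver 48 and treated liver 233. With the sheep as a fixed replicate block 4 of the 29 were more positive, against 2.98% of all genes.

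High and low levels of these genes were not matched between the tissues of a sheep in these 9 animals. Over the 9 sheep with both tissues, the score as a deviation from its group mean had a Pearson's r of -0.22 and a Spearman's rho of -0.42, and 3 of 9 sheep lay on the same side in both tissues. Without sheep 98 r was -0.38, and without sheep 98 and 63, the ones farthest from the median liver score, it was 0.040. Sheep 98 ranked first of 9 in liver and 7 in muscle, with a muscle score of -0.13. Treated sheep 63 ranked 2 in liver and 9 in muscle, and treated sheep 233 ranked 6 in liver and 1 in muscle. MX1 in sheep 98 was 8.19 times the mean of the other controls in liver and 1.09 times in muscle, and IFIT1 was 9.28 times in liver and 0.66 times in muscle. Other genes were above the other controls in both tissues, such as HERC6 at 5.92 and 1.53 times and DDX58 at 3.26 and 1.42 times. The muscle of sheep 98 was above the tissue mean for 10 of the 29 genes.

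**Figure D4:**
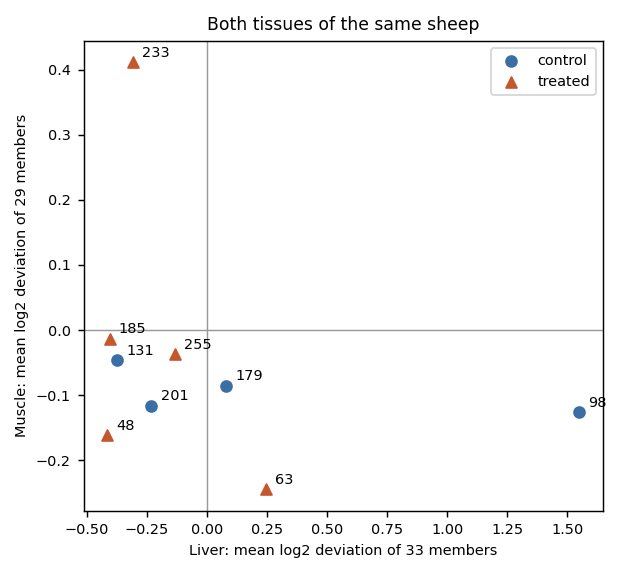
Score (mean log2 deviation from the tissue mean) of each sheep with both tissues, liver on the x axis and muscle on the y axis. Sheep 98 lies far to the right at 1.55 with a muscle score of -0.13, and sheep 233 lies highest in muscle at 0.41 with a liver score of -0.31.

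Gene by gene, the liver and muscle deviations of the same 9 sheep had a median r of 0.037 over 29 genes, against 0.17 over 11697 genes, and 16 of 29 were positive. None passed the exact permutation test of sheep within groups after adjustment (smallest adjusted p = 0.666), and none of all genes did (0.00%). At an unadjusted p under 0.05, ADAR was positive with r = 0.75 and rho = 0.75 (exact permutation p = 0.0431 and 0.0396), against 6.01% of all genes. Its r was 0.49 without sheep 98 and 185, the ones farthest from the median. XAF1, a pro-apoptotic interferon target, was negative with r = -0.74 and rho = -0.68 (exact permutation p = 0.0406 and 0.0806), against 1.39% of all genes. Its r was -0.78 without sheep 48 and 185. Over all genes the deviations within a sheep correlated at a median of 0.18 with the other tissue of the same animal, and for 7 of the 9 the own other tissue gave the highest correlation.

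DTX3L was near 0 in both tissues of 1 animal. The gene encodes a ubiquitin ligase that works as a complex with PARP9. In treated sheep 48 it had 2 reads in liver and 0 in muscle, which allows up to 3 reads or a normalized read count of 3.04. The other treated livers 63, 185, 233 and 255 were at 61.9, 44.3, 72.8 and 29.3, and control livers 98, 131, 179 and 201 at 75.7, 58.1, 77.1 and 20.0. In muscle the other treated sheep were at 24.3 to 25.1 and controls at 18.9 to 43.0. Sheep 48 was thus alone at or near 0 in each tissue. Its neighbours in the gene table, PARP9 and PARP14, were not low in that animal, at 180 and 318 in liver and 80.2 and 52.8 in muscle. The r of DTX3L between tissues was 0.89 and rho 0.78 (exact permutation p = 0.0681 and 0.0267), and r was -0.089 without sheep 48 and 201, so the relation rests on those animals.

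**Figure D5:**
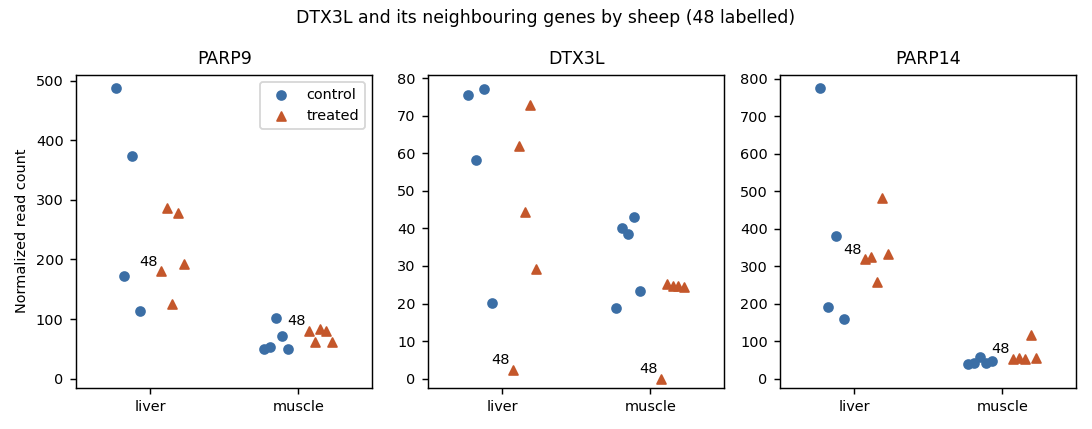
Normalized read counts of DTX3L and its neighbouring genes PARP9 and PARP14 in each library, with control sheep as circles, treated sheep as triangles and treated sheep 48 labelled. DTX3L is at 2.36 in liver and 0 in muscle of sheep 48, while PARP9 and PARP14 of that sheep lie inside the range of the other libraries.

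Around these genes, 73 further genes of the interferon pathway were measured, of which 62 were tested in liver and 60 in muscle. None passed the adjusted test in either tissue (limma, smallest adjusted p 0.999 in liver and 0.184 in muscle). The interferons IFNG, IFNK and IFNE, the ones measured, summed to at most 13 in any liver and 0.97 in any muscle, and IFNG and IFNE were at 0 in all muscles. In control liver 98 IFNG was at 0.65. The receptor subunit IFNAR1 averaged 596 ± 124 (SD, n = 4) over control livers, against 650 ± 151 (SD, n = 5) over treated ones. Over the 62 genes the median ratio of liver 98 to the other controls was 1.38, against 0.98 over all genes. For all genes 1 was added to both values before the ratio was taken. At least 2-fold above the other controls in liver 98 were 14 of the 62 genes, against 4.68% of all genes. Among these, the adaptor MYD88 was 3.82 times, the ring finger protein RNF213 3.73 times and the nuclear body protein PML 3.06 times as high. Genes that interferon gamma induces differed among themselves in that liver. The chemokines CXCL9 and CXCL10 were at 0.39 and 0.84 times and CXCL11 at 2.00 times the other controls. Of the genes of antigen presentation, PSMB9 was at 0.99, PSMB8 at 1.24, TAP1 at 1.70, TAP2 at 1.97, CIITA at 1.43 and NLRC5 at 2.15 times.

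CXCL9, a chemokine that draws T cells, had the smallest unadjusted p among the pathway genes. In muscle it was at 29.8, 40.1, 23.1, 16.3 and 10.9 in controls 98, 131, 132, 179 and 201. In treated muscles 48, 63, 185, 233 and 255 it was at 73.1, 80.1, 20.4, 182 and 86.4. All treated muscles but sheep 185 were above every control. The log2 fold change of CXCL9 in muscle was 1.67 ± 0.48 (SE, limma, unadjusted p = 0.0040, adjusted p = 0.184). In liver it was at 41.4, 65.9, 152 and 102 in controls 98, 131, 179 and 201, and at 222, 315, 56.7, 255 and 335 in treated livers. The same sheep 185 was low again and the other 4 treated livers were above every control (log2 fold change 1.31 ± 0.52, SE, limma, unadjusted p = 0.0267, adjusted p = 0.999). In liver the unadjusted p of CXCL9 was 0.0910 without control 98, 0.0637 without control 131, 0.0635 without treated 63, 0.0543 without treated 233 and 0.0592 without treated 255, and 0.00042 without treated 185 (limma). In muscle its unadjusted p with 1 library left out ran from 0.00010 without treated 185 to 0.0120 without control 201 (limma). It did not pass the adjusted test in either of those 2 fits. Of the T and NK cell genes tested, 10 of 10 had positive log2 fold changes in liver and 8 of 9 in muscle. Over all genes tested, 49.6% lay below 0 in liver and 51.6% in muscle. Of the T and NK cell genes 0 passed the adjusted test. At an unadjusted p under 0.05, 2 were higher in liver and 1 in muscle (limma), against 1.82% and 7.37% of all genes. The sums over T and NK cell genes were 315 to 495 in control livers and 664, 791, 517, 618 and 411 in treated livers 48, 63, 185, 233 and 255. Treated 255, the highest liver in CXCL9, thus had the lowest treated sum, below control 98. In muscle the sums were 185 to 273 in controls and 226 to 386 in treated sheep, with treated 185 lowest. The part of T and NK cells in the level of CXCL9 was not tested.

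In muscle 5 of the 60 pathway genes were lower and 6 higher in treated sheep at an unadjusted p under 0.05, against 7.00% and 7.37% of all genes. STAT3, a factor activated by interferon and interleukin 6, was at 1329, 1151, 1306, 880 and 1113 in controls 98, 131, 132, 179 and 201 and at 599, 757, 824, 924 and 960 in treated sheep 48, 63, 185, 233 and 255 (log2 fold change -0.51 ± 0.15, SE, limma, unadjusted p = 0.0053, adjusted p = 0.194). Control 179 lay inside the treated range and the other controls above it. LAP3, an interferon-induced aminopeptidase, was at 587 to 654 in controls and 431 to 547 in treated muscles. Its ranges did not overlap, and 3.29% of all genes tested in muscle had separate ranges. A count of such genes among the 60 is not given here. IRF8, a factor of macrophages and dendritic cells, was at 208 in treated sheep 233 against 39.8 to 63.1 in the other treated and 22.7 to 43.0 in control muscles. CIITA, the activator of MHC class II genes, was likewise at 52.0 in sheep 233 against 12.2 to 21.0 in the other treated muscles and 7.70 to 13.9 in controls. Without sheep 233 the log2 fold change was 0.52 for IRF8 and 0.73 for CIITA (limma, unadjusted p = 0.0489 and 0.0453). For IRF8 the unadjusted p was 0.0695 without control 131 (limma). The counts of lower and higher pathway genes moved with single libraries. The lower ones were 3 without control 98 or 179 or treated 48 or 185, and 2 without treated 233. They were 6 without treated 63 or 255. The higher ones were 3 without control 131, 4 without control 98 or 179 or treated 233, and 10 without control 132. They were 7 without treated 63 or 185 and 8 without treated 255. The share of all genes higher was 6.62% without control 132. Over all genes, the shares with 1 library left out were 5.00% to 8.96% lower and 6.03% to 8.19% higher. In liver TICAM1, the adaptor of the RNA sensor TLR3, was lower and TLR8, an endosomal RNA sensor, was higher at that threshold, besides CXCL9. These 1 and 2 of 62 genes stood against 2.17% and 1.82% of all genes. The liver counts of 1 lower and 2 higher were 0 and 0 without control 131 or treated 233, 0 and 4 without sheep 98, 4 and 3 without control 179, and 4 and 4 without treated 185. The shares of all genes were 1.43% and 1.49% without sheep 98, 4.49% and 3.98% without control 179 and 3.61% and 2.47% without treated 185. Without any other 1 liver library, 1.71% to 2.27% of all genes were lower and 1.40% to 1.89% higher. The pathway counts were 0 and 1 without control 201 or treated 48 or 255, and 1 and 1 without treated 63.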

How the data were processed

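RNA of liver and muscle was made into TruSeq libraries, per the labels' protocols, and Trimmomatic, STAR and featureCounts 1.6.1 turned the reads into counts, per the submitters' processing notes. The sources used here do not give the genome build, annotation or strand setting, so antisense and overlapping genes, and close paralogues such as MX1 and MX2 or the IFIT genes, may share reads. The deposited signal is the authors' normalized read count per gene, and 100% of values were whole multiples of 1 read within 0.01 read, with scaling equal to the median of ratios within a tissue. Identifiers were looked up in the RefSeq gene table of ARS-UI_Ramb_v3.0, where 22250 matched by symbol, 458 by gene number and 5816 did not match. Genes with a mean of at least 10 were tested on log2(value + 1), a scale that understates the change of low genes, with limma 3.58.1 in R 4.3.3. In the limma fits of 1 tissue, p-values rest on the spread between sheep, 1 library per animal. The main fit of the difference between tissues had no term for the sheep, although 9 sheep gave both tissues. The sheep number pairs the tissues, since both came from 1 animal. Deviations within a sheep correlated at 0.103 to 0.349 in the 9 sheep, against a median of -0.0172 between different sheep. The tissues of a sheep were compared by an exact permutation of sheep within groups. The labels named no batch. Each alternative changed 1 choice: the pseudocount (0.25 or 4), the filter (none, or a mean of 50), TMM rescaling, edgeR 4.0.16 or DESeq2 1.42.0 on recovered reads, a joint fit of both tissues, a sheep block, or 1 library left out. The procedure was tested on simulated data. The members and gene lists were chosen with earlier results of these data known, and the pathway genes named are those with an unadjusted p under 0.05, or chosen after their values were seen. A pathway gene within these counts is not reported here.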

Additional observations from a re-analysis of the deposited data

Results flagged for a closer look

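The sets tested were log2(value + 1) of 1 gene, or the score, in 1 group of sheep. Of 128 sets, 6 held a single library far from the others by Dixon's test, and chance alone marks about 1 in 20 sets. Levels of genes are given below as normalized read counts. DDX58 was at 588.5 in control liver 98. IFI6, at 7876 in that liver, was not marked on the log2 scale. DTX3L was at 2.358 in the liver and at 0 in the muscle of treated sheep 48. PARP14 was at 115.8 in treated muscle 233. CMPK2 was at 302.4 in treated muscle 185, against 214 to 225 in the other treated muscles. The score over the 29 genes was 0.4186 in control muscle 132.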

How the results depend on the processing

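No member passed the adjusted test in liver, in muscle or in the difference between tissues under any alternative run. The liver median was -0.024 without control sheep 98, against -0.38 with it. In liver the 3 genes lower at an unadjusted p under 0.05 became 6 with no filter, against 2.91% of all genes. The count was 5 with TMM rescaling (2.39%), 10 with edgeR (2.59%), 8 with DESeq2 (2.60%) and 7 in 1 fit of all libraries (3.73%). With 1 library left out 0 to 6 were lower, against 1.43% to 4.49% of all genes, and 0 to 2 higher, against 1.40% to 3.98%. DESeq2 gave no p for IFI6, MX1 and MX2 in liver. In muscle the 1 lower gene became 0 with no filter (5.05% of all genes) and with a mean of at least 50 (8.46%). The count was also 0 in 1 fit of all libraries (2.98%). With 1 library left out 0 to 2 were lower, against 5.00% to 8.96% of all genes. The 1 higher gene became 0 with a mean of at least 50 (7.00% of all genes), 2 with edgeR (8.12%) and 2 with DESeq2 (8.19%). With 1 library left out 0 to 3 were higher, against 6.03% to 8.19% of all genes. For the difference between tissues the 2 more positive genes became 4 with the sheep as a fixed replicate block (2.98% of all genes). The count was 1 with a mean of at least 50 (2.31%). With 1 library left out 1 to 4 were more positive, against 1.87% to 7.12% of all genes. There 0 to 1 were more negative, against 1.65% to 7.46%. With the sheep as a random block, at a correlation within a sheep of 0.12, no call changed. The cause of these shifts was not tested, apart from the genes or samples that an alternative leaves out.

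The edgeR and DESeq2 fold changes had the other sign for PARP14 (-0.1664 and -0.1399), TRIM21 (-0.0932 and -0.06143) and IFI6 (-0.7023 and -0.6542) in liver and XAF1 (0.01752 and 0.01619) in muscle. With 1 library left out, the log2 fold changes whose sign turned ranged, in liver, over UBA7 -0.6477 to 0.08024, IFIH1 -0.4457 to 0.03825, STAT2 -0.03761 to 0.2299, IRF7 -0.7038 to 0.1228, IRF9 -0.4699 to 0.006692, PARP9 -0.6275 to 0.07083, PARP14 -0.1941 to 0.5642, IFIT3 -0.5709 to 0.2488, IFIT5 -0.4343 to 0.1758, MX2 -1.289 to 0.09264, TRIM21 -0.229 to 0.4533, IFI44L -0.5976 to 0.4201, RTP4 -0.3648 to 0.5539, and, in muscle, over USP18 -0.3607 to 0.001925, DDX58 -0.1564 to 0.181, IFIH1 -0.3093 to 0.04169, EIF2AK2 -0.09162 to 0.1595, STAT2 -0.2042 to 0.07282, IFIT2 -0.1173 to 0.1266, IFIT5 -0.1375 to 0.06096, MX1 -0.5534 to 0.005408, TRIM25 -0.1476 to 0.0632, IFI6 -0.1432 to 0.3712, IFI44 -0.3046 to 0.03662, XAF1 -0.2157 to 0.2117. None of these was past the threshold with all libraries. Genes under about 10 reads a library, such as ISG15 in muscle, are limited by depth. A planned search of promoter sequences was not run, since no sequence of the sheep genome was used here.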
